A study of Mus musculus with 16 samples.

Results

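The passage from the mouse morula to the blastocyst was described here across 30638 array rows that carry exactly 1 gene symbol (30176 genes), out of 72688 rows on the array, by setting the 2 blastocyst arrays against the 2 morula arrays of a series of 16. Zygotes from matings of B6C3F1 females with CD1 males were grown in pools in KSOM(aa) medium under 5% CO2 at 37 °C, and oocytes or embryos of 8 stages were taken for total RNA. The morula arrays hold embryos of about 16 cells at 3 days after fertilization and the blastocyst arrays embryos of about 32 cells at 4 days, all with the zona pellucida still on. At each stage there is 1 array from females stimulated with 10 IU PMSG followed 48 h later by 10 IU hCG (superovulated) and 1 from females that ovulated without stimulation (natural cycle). All 4 groups share the same parental strains and the same culture, and the labels name no altered gene in any of them. Lysates were pooled by stage within each hormone background, over 4 runs (3096 oocytes and embryos) or 9 runs (989). The volume of 20 embryos went onto each array, so an array is a portion of a pool of embryos. No array has a replicate. Every p-value given here rests on how the 2 backgrounds disagree over the stages, not on the spread between litters or females.

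At this step the embryo makes its first epithelium. The outer cells of the compacted morula polarise, seal their contacts with tight junctions and become trophectoderm, the future placental lineage, while the inner cells form the inner cell mass, which divides into epiblast (the future body) and primitive endoderm (the future yolk sac). In outer cells the Hippo kinases are held off and the coactivator YAP works with the factor TEAD4 on genes such as Cdx2 and Gata3, whereas in inner cells phosphorylated YAP stays in the cytoplasm. Sodium pumps at the basolateral membrane draw in sodium and water, and the fluid collects in the blastocoel. Whole embryos were lysed, so the arrays mix all of these cells. A transcript that falls may be made by fewer cells or at a lower level per cell, and these cannot be told apart. Since the arrays carry a like total signal, every value is also relative to the rest of the embryo's RNA.

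Values below are the deposited log2 signals, with the superovulated array given first and the natural-cycle array second. The change is blastocyst minus morula on the log2 scale, so that 1 is a doubling, with the standard error (SE) of a linear model (limma) that fits a mean for each stage and an offset for the hormone background over all 16 arrays. An adjusted p is limma's moderated p-value after Benjamini-Hochberg correction over the 30638 rows, and genes are said to rise or fall only where it is under 0.05. The superovulated morula array stood apart from the other 3. Its median over all rows was 4.69, against 4.53 to 4.57 on the others, and its silent level was 5.20 against 4.75 to 4.89. The silent level is the 95th percentile of 1755 rows for olfactory, vomeronasal and taste receptor genes on an array, and marks the signal below which a gene is read as not detected. On this array 14671 rows lay above it, against 15981 to 16472 on the others. Results are therefore also given without this array, and without the natural-cycle blastocyst array where that one decides them.

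In all 3697 rows changed, which is 12.1% of those tested, with 2003 higher at blastocyst (6.54%) and 1694 lower (5.53%). The median change of the rows that rose was 1.46 and that of the rows that fell was -1.41, while the median over all rows was -0.06. Without the superovulated morula array 1872 rows were called, and without the natural-cycle blastocyst array 1632. Set on a centre of housekeeping genes, which lowered the median of all rows by a further 0.25, the split was 1310 higher and 2552 lower. With cyclic loess, which aligns the arrays to each other at each signal level, it was 2367 higher and 1525 lower. Each background was also read by itself, 1 array against 1, with no test. On the superovulated background 2401 rows were at least 2-fold higher (7.84%) and 1526 at least 2-fold lower (4.98%), whereas on the natural-cycle background 1991 were at least 2-fold higher (6.5%) and 2659 at least 2-fold lower (8.68%). Both backgrounds passed 2-fold in the same direction for 1282 rows upward and 1010 downward. The lean of the natural-cycle pair towards lower values lay in its brighter rows. Rows with a mean signal above 12 had a median change of -0.50 on the natural-cycle background and 0.04 on the superovulated one.

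**Figure D1:**
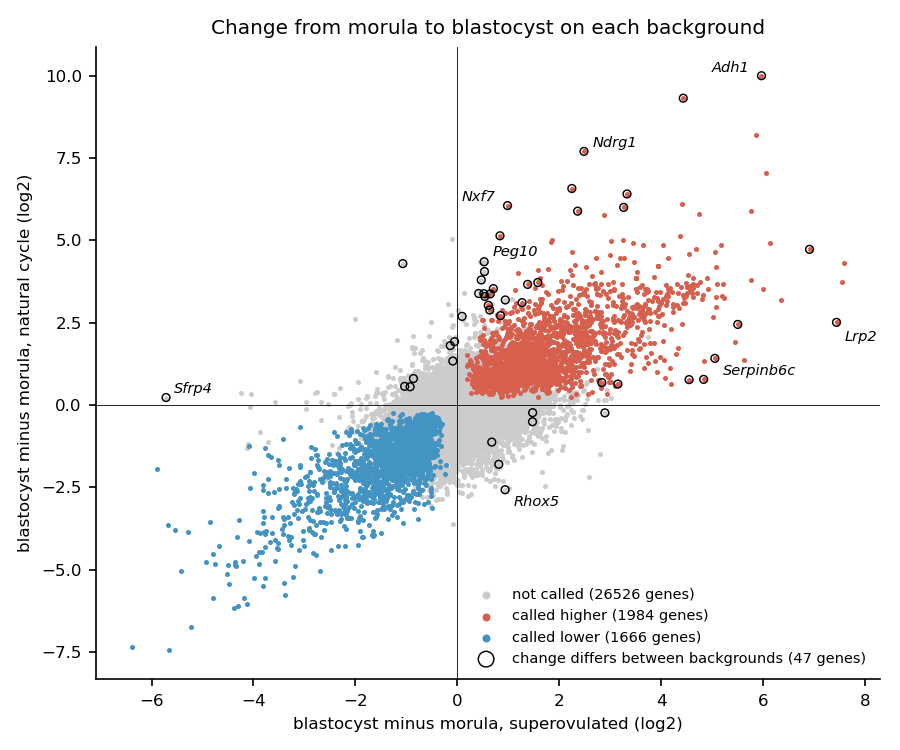
Change from morula to blastocyst (log2, blastocyst minus morula) on the superovulated background (x axis) against the natural-cycle background (y axis), 1 point per gene, with genes called higher in red, called lower in blue and those whose change differed between the backgrounds circled. The 1984 genes called higher all lie above 0 on both axes and the 1666 called lower below 0 on both.

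Among called genes above the silent level on all 4 arrays, the 5 largest rises were those of Lgals1, Krt8, Krt18, Id2 and Tfap2a. Galectin-1 (Lgals1), a lectin that binds cell surface sugars, had signals of 7.27 and 7.67 at morula and 13.13 and 15.88 at blastocyst, a change of 7.03 ± 0.63 (adjusted p = 6.41e-05). No earlier array of the series reached either blastocyst value. Moesin (Msn), which ties actin to the plasma membrane, read 5.94 and 7.07 at morula and 10.34 and 13.17 at blastocyst and rose by 5.25 ± 0.64 (adjusted p = 0.00032). Nectin-1 (Nectin1), an adhesion molecule of adherens junctions, rose by 4.86 ± 0.45 (adjusted p = 7.27e-05), and the membrane aminopeptidase Enpep rose by 4.74 ± 0.71 (adjusted p = 0.00119). The stress-induced gene Ndrg1 read 6.23 and 5.69 at morula and 8.71 and 13.39 at blastocyst, so that the natural-cycle blastocyst stood well above the superovulated one. Its fitted change was 5.09 ± 1.00 (adjusted p = 0.00624), and it was 2.57 (adjusted p = 0.000547) without the natural-cycle blastocyst array.

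The 5 largest falls by the same rule were those of Omt2b, Obox6, Sox15, Sp110 and Slc12a2. Omt2b, an oocyte maturation gene, read 12.88 and 12.44 at morula and 6.49 and 5.09 at blastocyst and fell by 6.87 ± 0.40 (adjusted p = 1.49e-05). The oocyte-specific homeobox gene Obox6 read 14.81 and 13.81 at morula and 9.59 and 7.07 at blastocyst and fell by 5.98 ± 0.50 (adjusted p = 5.46e-05). On each background the fall of both genes was more than 5 units. Both were picked for the size of their falls, so the lack of overlap between the stages adds nothing to this. The SRY-box factor Sox15 read 14.61 and 14.16 at morula and 10.23 and 8.00 at blastocyst, a fall of 5.27 ± 0.45 (adjusted p = 6.03e-05). Also among the 15 largest falls were Rnf122, a RING finger protein, at 4.67 ± 0.38 (adjusted p = 4.97e-05), Arg1 (arginase 1), which splits arginine into ornithine and urea, at 4.57 ± 0.69 (adjusted p = 0.00125), Anpep (aminopeptidase N) at 4.58 ± 0.42 (adjusted p = 6.86e-05) and Tnfsf13b, the cytokine BAFF, at 4.51 ± 0.40 (adjusted p = 6.41e-05). The Pramel51 and Pramel25 rows fell by 4.82 ± 0.28 (adjusted p = 1.49e-05) and 4.62 ± 0.28 (adjusted p = 1.49e-05). These 2 genes and Obox6 and Omt2b have close copies in the genome whose transcripts can share probes, so their rows may report several copies together.

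**Figure D2:**
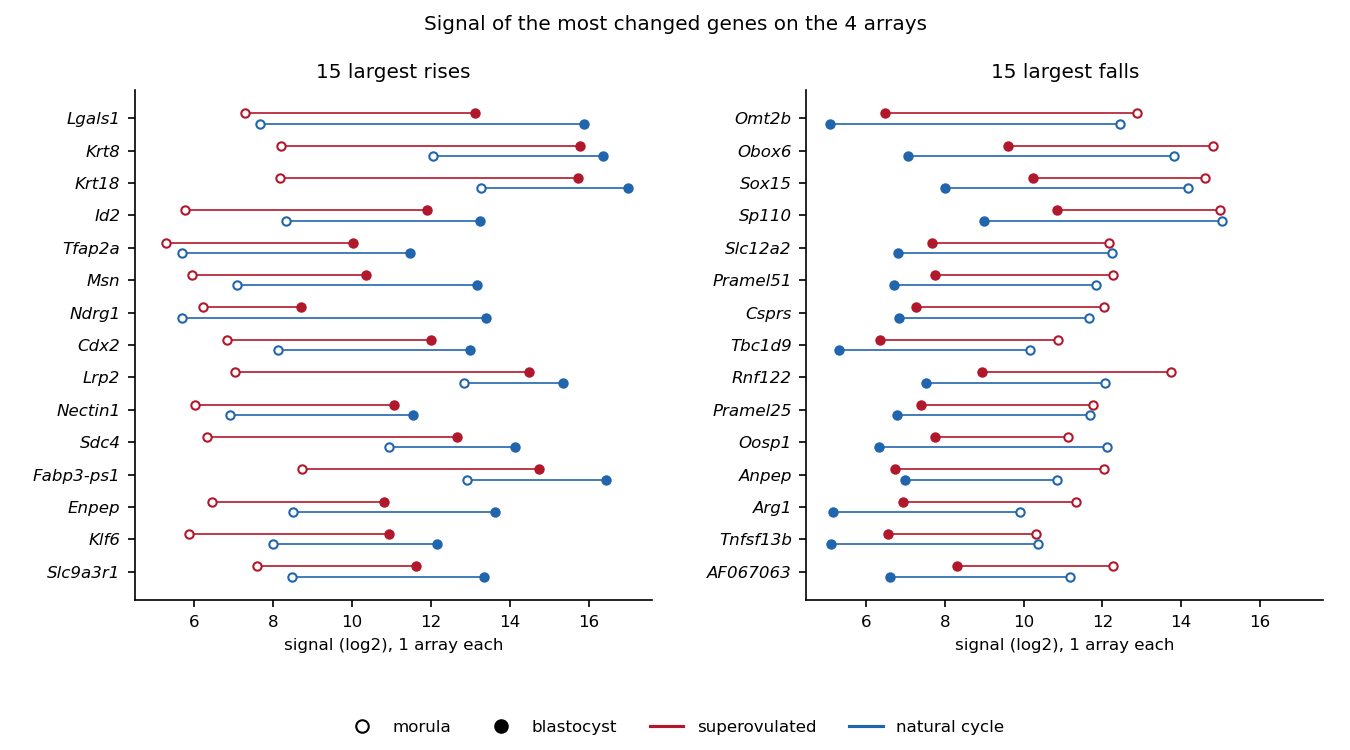
Log2 signal of the 15 genes with the largest rises and the 15 with the largest falls on each of the 4 arrays, morula and blastocyst joined within a background. Open points are morula arrays and filled points blastocyst arrays. The signal of Omt2b was 12.88 and 12.44 at morula and 6.49 and 5.09 at blastocyst.

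Of all rows 6.54% rose and 5.53% fell, but these rows include 12785 that were silent on all 4 arrays. Among 12604 autosomal genes detected on all 4 arrays, 11.2% rose and 9.81% fell. These 2 shares are the closer reference for a list of detected genes. Of 23 regulators of the trophectoderm tested, 10 rose and 2 fell, and the list's median change was 0.72 (0.40 superovulated, 0.67 natural cycle). The counts were 7 and 1 without the superovulated morula array, 10 and 1 without the superovulated blastocyst array and 7 and 1 without the natural-cycle blastocyst array. Cdx2, the caudal homeobox factor that holds trophectoderm identity, read 6.82 and 8.13 at morula and 12.003 and 12.99 at blastocyst and rose by 5.02 ± 0.39 (adjusted p = 3.75e-05). Tfap2a, which encodes AP-2alpha, read 5.27 and 5.67 at morula and 10.01 and 11.47 at blastocyst and rose by 5.26 ± 0.34 (adjusted p = 1.7e-05). At morula both genes were above the silent level on both backgrounds, Tfap2a by less than 0.1 on the superovulated array. The T-box factor Eomes, needed for trophoblast development, rose by 4.25 ± 0.53 (adjusted p = 0.000358). Id2, an inhibitor of basic helix-loop-helix factors known as an early mark of outer cells, read 5.76 and 8.33 at morula and 11.89 and 13.26 at blastocyst and rose by 5.53 ± 0.55 (adjusted p = 0.00011). The zinc finger factor Klf6 rose by 4.63 ± 0.66 (adjusted p = 0.000871) and the homeobox factor Msx2 by 1.21 ± 0.19 (adjusted p = 0.00145). Elf3, an epithelial ETS factor, rose by 4.25 ± 0.64 (adjusted p = 0.00121), and its change was 2.81 (adjusted p = 0.00352) without the superovulated morula array. Tead4, the DNA-binding partner of YAP that acts upstream of Cdx2, moved the other way, at 12.80 and 12.67 at morula and 10.34 and 10.99 at blastocyst, a fall of 2.07 ± 0.27 (adjusted p = 0.000542). Hand1, a factor of trophoblast giant cells, fell by 2.14 ± 0.54 (adjusted p = 0.024), and its change was -1.37 (adjusted p = 0.253) without the superovulated morula array, -2.19 (adjusted p = 0.0754) without the superovulated blastocyst array and -2.08 (adjusted p = 0.146) without the natural-cycle blastocyst array. Tfap2c, the AP-2gamma gene, was not called at -0.71 ± 0.27 (adjusted p = 0.128), nor was Elf5 at 0.83 ± 0.36 (adjusted p = 0.182), whose signals were 4.57 and 4.27 at morula and 4.43 and 6.07 at blastocyst. Gata3 has no row with exactly 1 symbol here and was not analysed.

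The promoters of Cdx2, Id2 and Krt18 are shown as examples, chosen after the search, of windows of genes that rose by more than 5 units and that hold 1 or more of the motifs marked here. The windows of Krt8, Tfap2a and Adh1, which also rose by more than 5 units, hold none of these 3 motifs. The windows run from 250 bases before to 50 bases after the start of the gene, on the gene's own strand, taken from RefSeq on build GRCm38.p6. Capitals mark matches, on either strand, to the AP-2 core (GCCNNNGGC), the octamer (ATGCAAAT) or the CCAAT box (CCAAT).
Cdx2: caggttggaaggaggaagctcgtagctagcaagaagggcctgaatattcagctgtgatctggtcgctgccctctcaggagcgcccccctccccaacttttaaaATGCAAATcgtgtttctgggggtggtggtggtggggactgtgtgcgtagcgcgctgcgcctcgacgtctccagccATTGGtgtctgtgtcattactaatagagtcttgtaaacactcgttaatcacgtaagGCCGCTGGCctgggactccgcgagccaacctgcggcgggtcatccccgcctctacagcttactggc
Id2: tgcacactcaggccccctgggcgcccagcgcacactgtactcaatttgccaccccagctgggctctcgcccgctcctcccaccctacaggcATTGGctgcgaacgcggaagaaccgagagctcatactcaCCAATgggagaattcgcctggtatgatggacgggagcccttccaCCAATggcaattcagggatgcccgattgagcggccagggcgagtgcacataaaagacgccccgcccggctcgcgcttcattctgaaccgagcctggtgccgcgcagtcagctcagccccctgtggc
Krt18: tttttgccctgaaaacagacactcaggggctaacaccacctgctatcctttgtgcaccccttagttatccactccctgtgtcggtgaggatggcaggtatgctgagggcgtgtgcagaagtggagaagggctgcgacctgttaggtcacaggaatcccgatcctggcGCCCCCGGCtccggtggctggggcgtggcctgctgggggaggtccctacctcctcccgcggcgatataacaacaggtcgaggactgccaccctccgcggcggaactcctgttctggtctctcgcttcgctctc
The Cdx2 window lies at chr5:147307200-147307499, minus strand, the Id2 window at chr12:25096043-25096342, minus strand and the Krt18 window at chr15:102027966-102028265, plus strand. Cdx2 holds an octamer, an AP-2 match and a CCAAT box, Id2 holds CCAAT boxes only, and Krt18 holds an AP-2 match. The AP-2 core is common in such windows. It was present in 25.2% of the 1300 windows of genes that rose, 23.0% of the 1113 of genes that fell and 24.2% of the 6104 of genes detected on all 4 arrays and not called, against 19.3% of all 17972 windows.

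Keratins and desmosomes changed in 1 direction. Of the 15 genes on that list, 9 rose and 0 fell, with a median change of 0.92 (0.88 superovulated, 1.10 natural cycle), and the counts were 5 and 0 without the superovulated morula array. Wherever a list is given with 0 higher or 0 lower by limma, at most 3 of its members had an unadjusted p under 0.05 in that direction, and at most 1 passed a plain analysis of variance after adjustment. Krt8 and Krt18, which pair into the first intermediate filaments of the embryo, read 8.19 and 12.06 at morula and 15.78 and 16.37 at blastocyst for Krt8 and 8.18 and 13.27 at morula and 15.74 and 17.00 at blastocyst for Krt18. Both were at about 8 on the superovulated morula array and above 12 on the natural-cycle one, and between 15.74 and 17.00 on the blastocyst arrays. The change was 5.95 ± 0.86 (adjusted p = 0.000944) for Krt8, and it was 3.94 (adjusted p = 0.0019) without the superovulated morula array. For Krt18 it was 5.65 ± 1.01 (adjusted p = 0.00357) on all arrays and 3.26 (adjusted p = 0.00617) without the superovulated morula array. Desmoplakin (Dsp), which anchors keratin to the desmosome, rose by 4.24 ± 0.57 (adjusted p = 0.000595). The desmosomal cadherins rose too, Dsg2 by 3.10 ± 0.28 (adjusted p = 7.11e-05) and Dsc2 by 2.24 ± 0.40 (adjusted p = 0.00348). Evpl, Krt23 and Krt42 were not called, with changes between -0.11 and -0.01.

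Among tight junction and polarity genes the rises were led by Epcam, Cldn6, Ezr and Tjp3. Of 23 tested, 7 rose and 0 fell, with a median of 0.82 (0.55 superovulated, 0.81 natural cycle). The corresponding counts were 4 and 1 without the superovulated morula array, 4 and 0 without the natural-cycle blastocyst array and 5 and 1 with housekeeping centring. Epcam, an epithelial adhesion molecule, read 8.74 and 9.66 at morula and 12.70 and 12.67 at blastocyst and rose by 3.48 ± 0.32 (adjusted p = 7.26e-05). Cldn6, a claudin of early epithelia, read 5.66 and 6.46 at morula and 9.07 and 9.09 at blastocyst and rose by 3.01 ± 0.26 (adjusted p = 6.21e-05). Tjp3, the scaffold ZO-3, rose by 2.59 ± 0.32 (adjusted p = 0.000337), and ezrin (Ezr), a marker of the apical membrane, by 2.62 ± 0.37 (adjusted p = 0.000864). The apical scaffold Slc9a3r1 (EBP50), which binds ezrin, rose by 4.44 ± 0.67 (adjusted p = 0.00123). Tjp1, the scaffold ZO-1, was not called at -0.59 ± 0.27 (adjusted p = 0.21), and E-cadherin (Cdh1), the adhesion molecule of compaction, was not called at 1.18 ± 0.35 (adjusted p = 0.0518), with signals of 13.45 and 13.97 at morula and 14.37 and 15.41 at blastocyst.

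Genes that move ions and water were called in both directions. Of 20 tested, 3 rose and 4 fell, and the median was 0.09 (0.01 superovulated, 0.05 natural cycle). These counts were 5 and 4 without the superovulated blastocyst array and 5 and 4 with cyclic loess. The sodium pump's beta 1 subunit, Atp1b1, read 9.01 and 10.27 at morula and 12.06 and 13.40 at blastocyst and rose by 3.08 ± 0.35 (adjusted p = 0.000245). Its beta 3 subunit, Atp1b3, read 13.42 and 13.53 at morula and 11.92 and 11.75 at blastocyst and fell by 1.64 ± 0.27 (adjusted p = 0.00209). The 2 beta subunits thus moved in opposite directions on both backgrounds. Slc12a2, the sodium-potassium-chloride cotransporter NKCC1, read 12.16 and 12.25 at morula and 7.67 and 6.81 at blastocyst, a fall of 4.96 ± 0.46 (adjusted p = 7.11e-05). The water and glycerol channel Aqp9 fell by 1.23 ± 0.22 (adjusted p = 0.00331). Aqp3, another channel of this kind, was not called at 1.58 ± 0.49 (adjusted p = 0.0577), with signals of 11.89 and 13.62 at morula and 14.42 and 14.24 at blastocyst.

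Basement membrane and matrix genes rose with none falling. Of 22 tested 11 rose, the median was 1.72 (0.70 superovulated, 1.84 natural cycle), and the counts were 6 and 0 without the superovulated morula array and 6 and 0 without the natural-cycle blastocyst array. Fibronectin (Fn1) read 5.88 and 6.54 at morula and 8.88 and 11.09 at blastocyst and rose by 3.77 ± 0.57 (adjusted p = 0.00127). Lama5, a laminin alpha chain found in early basement membranes, read 6.73 and 8.05 at morula and 9.93 and 10.98 at blastocyst and rose by 3.07 ± 0.52 (adjusted p = 0.00252). Both genes were higher on each blastocyst array than on either morula array, which adds nothing to their calls. Agrin (Agrn), a heparan sulfate proteoglycan, rose by 2.58 ± 0.31 (adjusted p = 0.000272), the fibronectin receptor subunit Itga5 by 3.05 ± 0.36 (adjusted p = 0.000272) and the laminin receptor subunit Itga6 by 1.66 ± 0.27 (adjusted p = 0.00215). Lama1, another laminin alpha chain, was not called at 2.46 ± 1.03 (adjusted p = 0.166). Its signals were 5.08 and 4.50 at morula and 4.97 and 9.53 at blastocyst, so that the natural-cycle blastocyst stood far above the other 3 arrays. The collagen IV genes Col4a1 and Col4a2 were not called, at 0.14 and 0.34.

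The pluripotency and epiblast genes went both ways, with 18.75% higher and 12.5% lower beside 11.2% and 9.81% of detected autosomal genes. Of 32 tested, 6 rose and 4 fell, the median was -0.01 (0.05 superovulated, 0.08 natural cycle), and the counts were 1 and 3 without the superovulated morula array, 3 and 4 without the superovulated blastocyst array, 6 and 2 without the natural-cycle morula array, 1 and 3 without the natural-cycle blastocyst array and 5 and 7 with housekeeping centring. Sox2, a core pluripotency factor found in inner cells, read 4.86 and 5.48 at morula and 9.00 and 9.00 at blastocyst and rose by 3.83 ± 0.22 (adjusted p = 1.49e-05). Its 2 blastocyst readings were alike. Klf2, a factor of the naive state, read 7.39 and 7.49 at morula and 5.91 and 6.03 at blastocyst and fell by 1.47 ± 0.24 (adjusted p = 0.00184). Spic, an ETS-family factor, fell by 2.53 ± 0.40 (adjusted p = 0.00175). Nanog, the epiblast homeobox factor, read 12.82 and 15.08 at morula and 17.00 and 15.73 at blastocyst, a change of 2.42 ± 0.68 (adjusted p = 0.04). The change was 1.08 (adjusted p = 0.369) without the superovulated morula array, 1.74 (adjusted p = 0.234) without the superovulated blastocyst array, 3.76 (adjusted p = 0.00261) without the natural-cycle morula array and 3.10 (adjusted p = 0.0574) without the natural-cycle blastocyst array. Pou5f1, which encodes OCT4, was not called at -0.33 ± 0.32 (adjusted p = 0.622), with signals of 11.17 and 12.24 at morula and 11.54 and 11.23 at blastocyst.

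In the primitive endoderm list 7 of 22 rose and 1 fell, with a median of 0.19 (-0.09 superovulated, 0.49 natural cycle), and the counts were 2 and 1 without the superovulated morula array, 1 and 2 without the natural-cycle blastocyst array and 4 and 1 with housekeeping centring. The nuclear receptor Hnf4a, a gene of visceral endoderm, rose by 0.97 ± 0.15 (adjusted p = 0.00125). Lrp2 (megalin), an endocytic receptor, read 7.04 and 12.85 at morula and 14.48 and 15.35 at blastocyst and rose by 4.98 ± 1.14 (adjusted p = 0.0138). The change was 2.13 (adjusted p = 0.00573) without the superovulated morula array, 5.00 (adjusted p = 0.0538) without the superovulated blastocyst array, 7.82 (adjusted p = 2.15e-06) without the natural-cycle morula array and 4.95 (adjusted p = 0.095) without the natural-cycle blastocyst array. Its low value was the superovulated morula array. Cited1, a transcriptional coregulator, fell by 2.40 ± 0.40 (adjusted p = 0.00215). The factors that specify the lineage were not called, Gata6 at -0.39 ± 0.31 (adjusted p = 0.516), Gata4 at -0.63 ± 0.32 (adjusted p = 0.26), Sox17 at 0.16 ± 0.15 (adjusted p = 0.613) and Sox7 at 0.26 ± 0.14 (adjusted p = 0.306). Sox17 and Sox7 were not above the silent level on both arrays of either stage, so their values are not a reading of steady expression. Of the 22 genes, 7 were silent on all 4 arrays.

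Fibroblast growth factor from epiblast cells drives their neighbours towards primitive endoderm through ERK. The FGF and ERK list had 17.4% higher and 17.4% lower, beside 11.2% and 9.81% of detected autosomal genes. Of 23 genes of the FGF and ERK list 4 rose and 4 fell, the median was -0.07 (-0.17 superovulated, 0.04 natural cycle), and the counts were 1 and 2 without the superovulated morula array, 2 and 2 without the natural-cycle morula array and 1 and 1 without the natural-cycle blastocyst array. The ligand Fgf4 was not called at 0.46 ± 0.39 (adjusted p = 0.555), nor the receptor Fgfr2 at 1.08 ± 0.33 (adjusted p = 0.0542), with signals of 8.35 and 8.80 at morula and 8.96 and 10.34 at blastocyst. Sos1, the exchange factor that loads RAS, fell by 1.94 ± 0.34 (adjusted p = 0.00318). Dusp4, a phosphatase that ERK signalling induces, rose by 2.77 ± 0.51 (adjusted p = 0.00434), and was 1.78 (adjusted p = 0.0444) without the superovulated morula array.

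Within the Hippo list 4 of 23 rose and 6 fell, with a median of -0.16 (-0.05 superovulated, -0.25 natural cycle), and the counts were 2 and 4 without the superovulated morula array, 5 and 3 without the superovulated blastocyst array and 1 and 2 without the natural-cycle blastocyst array. Of the TEAD factors Tead4 fell, as given above, while Tead1, Tead2 and Tead3 rose. Tead2 read 5.20 and 5.14 at morula and 6.43 and 6.39 at blastocyst and rose by 1.24 ± 0.18 (adjusted p = 0.000944). Its superovulated morula signal was at that array's silent level of 5.20. Tead1 rose by 1.40 and Tead3 by 0.74, with ranges of 1.08 to 1.72 and 0.33 to 1.15 over the alternatives run. The Tead1 call was lost under 3 of 17 alternatives and the Tead3 call under 10 of 15. Tead3 was not above the silent level on both arrays of either stage. Taok1, a kinase upstream of the Hippo kinases, fell by 1.60 ± 0.28 (adjusted p = 0.003). Yap1 was not called at -0.36 ± 0.27 (adjusted p = 0.485). Among other signalling genes, the Notch ligand Jag1 read 7.94 and 7.87 at morula and 5.45 and 5.38 at blastocyst and fell by 2.49 ± 0.35 (adjusted p = 0.000843). Stat3, which carries the LIF signal, read 7.94 and 8.37 at morula and 10.65 and 11.89 at blastocyst and rose by 3.12 ± 0.49 (adjusted p = 0.00159). The WNT coreceptor Lrp6 fell by 1.51 ± 0.28 (adjusted p = 0.00392). The list of LIF, STAT3 and WNT genes had 3 of 23 higher and 3 lower, with a median of 0.31 (0.08 superovulated, 0.52 natural cycle), and counts of 7 and 2 without the superovulated blastocyst array, 2 and 1 without the natural-cycle blastocyst array and 5 and 3 with cyclic loess. The Notch list had 1 of 20 higher and 2 lower, with a median of -0.15 (-0.18 superovulated, -0.19 natural cycle), and counts of 0 and 1 without the superovulated morula array, 1 and 1 without the superovulated blastocyst array, 2 and 1 without the natural-cycle morula array, 0 and 1 without the natural-cycle blastocyst array and 0 and 2 with housekeeping centring. The shares were 17.4% higher and 26.1% lower for the Hippo list and 13.0% and 13.0% for the LIF, STAT3 and WNT list. For the Notch list they were 5.0% and 10.0%, and for the Nodal, BMP and TGF-beta list, given next, 20.0% and 4.0%. They stand beside 6.54% and 5.53% of all rows and 11.2% and 9.81% of detected autosomal genes. For Nodal, BMP and TGF-beta genes 5 of 25 rose and 1 fell, Id2 among the risers, with a median of 0.14 (0.35 superovulated, 0.34 natural cycle). Its counts were 2 and 0 without the superovulated morula array, 3 and 1 without the natural-cycle blastocyst array, 4 and 2 with housekeeping centring and 5 and 2 with cyclic loess.

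The hatching and implantation genes that rose were 2 lectins and 3 membrane proteases. The list had 17.9% higher and 3.57% lower, beside 11.2% and 9.81% of detected autosomal genes. Of 28 tested 5 rose and 1 fell, with a median of 0.20 (-0.03 superovulated, 0.18 natural cycle), and 5 or 7 rose and 0 fell with any 1 of the 4 arrays left out. Besides Lgals1, the galectin Lgals9 rose by 1.60 ± 0.29 (adjusted p = 0.00399). The serine proteases St14 (matriptase) and Prss8 (prostasin), which act in 1 proteolytic cascade of epithelia, rose by 3.61 ± 0.45 (adjusted p = 0.000368) and 2.64 ± 0.32 (adjusted p = 0.00032). St14 read 6.88 and 8.18 at morula and 10.64 and 11.65 at blastocyst, and Prss8 5.09 and 5.94 at morula and 7.91 and 8.40 at blastocyst. The transmembrane serine protease Tmprss2 read 4.32 and 4.32 at morula and 7.58 and 10.32 at blastocyst and rose by 4.63 ± 0.57 (adjusted p = 0.000346). It was silent on both morula arrays.

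**Figure D3:**
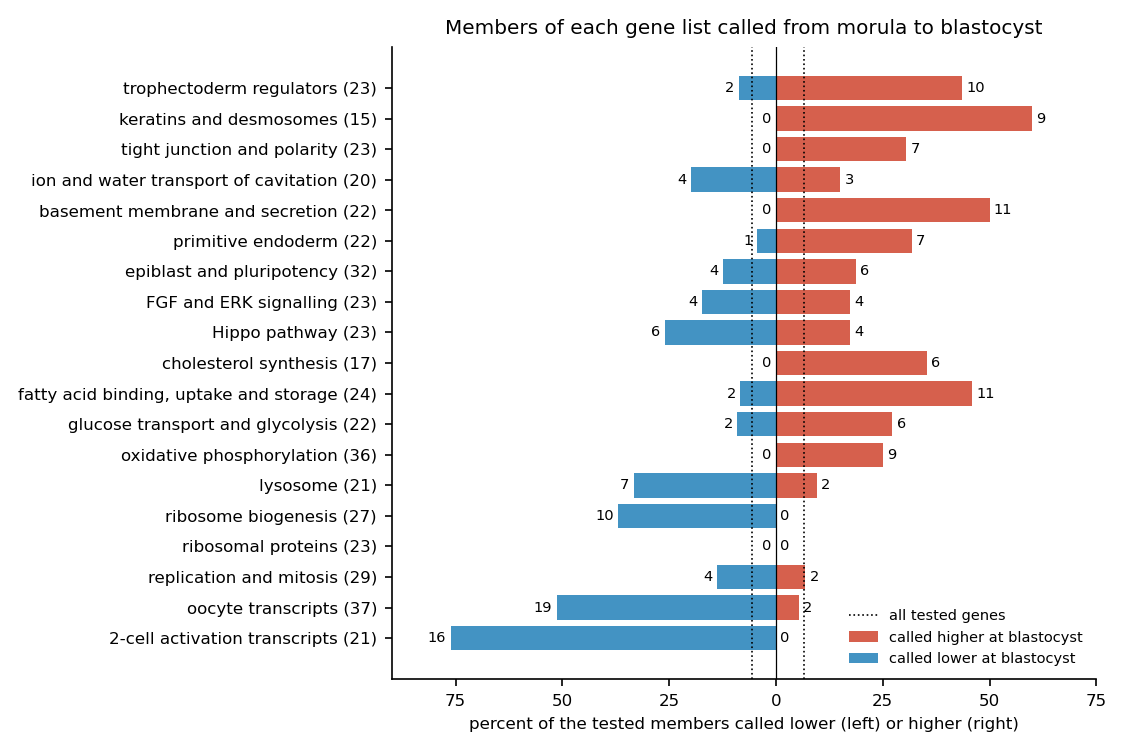
Percent of each gene list's tested members called higher (right) or lower (left) from morula to blastocyst, with the number called at each bar, the number tested beside the list's name and the share of all tested genes as dotted lines. The genes behind the dotted lines include 12598 that were silent on all 4 arrays. The 2-cell list has 16 of 21 lower and 0 higher, and the keratin and desmosome list 9 of 15 higher and 0 lower.

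Of 24 genes for fatty acid binding, uptake and storage 11 rose and 2 fell, with a median of 0.62 (0.59 superovulated, 0.66 natural cycle), and the counts were 6 and 2 without the superovulated morula array and 7 and 2 without the natural-cycle blastocyst array. Fabp3, a fatty acid carrier, read 9.12 and 12.42 at morula and 14.37 and 15.66 at blastocyst and rose by 4.24 ± 0.62 (adjusted p = 0.00101). A row for its pseudogene Fabp3-ps1 rose with it, by 4.77 ± 0.81 (adjusted p = 0.00271), and the 2 may share probes. That row was 2.90 (adjusted p = 0.00711) without the superovulated morula array. Plin2, which coats lipid droplets, rose by 2.48 ± 0.37 (adjusted p = 0.00124). The mitochondrial carnitine enzymes Cpt1a and Cpt2, which pass fatty acids into mitochondria, rose by 2.23 ± 0.38 (adjusted p = 0.00265) and 3.60 ± 0.30 (adjusted p = 5.13e-05). The last enzymes of triglyceride synthesis parted, since Dgat1 read 7.42 and 8.06 at morula and 9.92 and 9.59 at blastocyst and rose by 2.02 ± 0.33 (adjusted p = 0.00197), and Dgat2 read 10.21 and 9.96 at morula and 7.63 and 7.12 at blastocyst and fell by 2.71 ± 0.32 (adjusted p = 0.000259). The acyl-CoA synthetase Acsl4 fell by 2.94 ± 0.27 (adjusted p = 7.06e-05), and the elongase Elovl1 rose by 1.64 ± 0.25 (adjusted p = 0.00136).

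Srebf2, the master regulator of the cholesterol pathway, read 5.19 and 6.94 at morula and 8.72 and 10.99 at blastocyst and rose by 3.79 ± 0.65 (adjusted p = 0.00271). Of 17 cholesterol genes 6 rose and 0 fell, with a median of 0.68 (0.92 superovulated, 0.41 natural cycle), with counts of 2 and 0 without the superovulated morula array, 1 and 0 without the natural-cycle blastocyst array and 5 and 1 with housekeeping centring. Glucose genes gave 6 higher and 2 lower of 22, a median of 0.21 (0.11 superovulated, 0.34 natural cycle), with counts of 3 and 2 without the superovulated morula array, 6 and 1 without the natural-cycle morula array and 2 and 1 without the natural-cycle blastocyst array. The glycolytic enzyme Tpi1 rose by 2.57 ± 0.42 (adjusted p = 0.00197), the glucose transporter Slc2a3 (GLUT3) by 3.03 ± 0.55 (adjusted p = 0.00394), and the lactate dehydrogenase subunit Ldhb fell by 2.16 ± 0.27 (adjusted p = 0.000377). Slc2a3 was 1.82 (adjusted p = 0.0177) without the superovulated morula array. Oxidative phosphorylation genes, all 36 of them detected on all 4 arrays, gave 9 higher and 0 lower with a median of 0.63 (0.79 superovulated, 0.57 natural cycle). Only the succinate dehydrogenase subunit Sdhd, at 2.00 ± 0.35 (adjusted p = 0.00287), was past the threshold without any 1 of the 4 arrays, and the counts were 1 and 0 without the superovulated morula array, 2 and 0 without the natural-cycle blastocyst array, 5 and 0 with housekeeping centring and 14 and 0 with cyclic loess.

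Of 21 lysosomal genes 2 rose and 7 fell, although the median change was above 0, at 0.34 (0.11 superovulated, 0.06 natural cycle). The counts were 1 and 5 without the superovulated morula array, 4 and 3 without the natural-cycle morula array, 1 and 2 without the natural-cycle blastocyst array and 1 and 8 with housekeeping centring. The cathepsins Ctsz and Ctsh, lysosomal proteases, fell by 3.75 ± 0.42 (adjusted p = 0.00021) and 2.41 ± 0.32 (adjusted p = 0.000554). Tfrc, the transferrin receptor that takes up iron, read 11.02 and 11.27 at morula and 7.98 and 7.45 at blastocyst and fell by 3.43 ± 0.34 (adjusted p = 9.52e-05). For amino acid transporters 5 of 23 rose and 1 fell, with a median of 0.22 (-0.08 superovulated, 0.24 natural cycle), with counts of 0 and 0 without the superovulated morula array, 9 and 1 without the superovulated blastocyst array, 3 and 0 without the natural-cycle morula array, 0 and 0 without the natural-cycle blastocyst array and 5 and 2 with housekeeping centring.

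Ribosome biogenesis genes fell where they changed. Of 27 tested, 0 rose and 10 fell, with a median of -1.04 (-0.45 superovulated, -1.51 natural cycle), and the counts were 0 and 2 without the superovulated morula array, 0 and 3 without the natural-cycle morula array, 0 and 2 without the natural-cycle blastocyst array, 0 and 19 with housekeeping centring and 0 and 5 with cyclic loess. Nolc1, a chaperone of small nucleolar particles, read 15.56 and 15.67 at morula and 13.29 and 12.86 at blastocyst and fell by 2.54 ± 0.27 (adjusted p = 0.000178). Ddx21, a nucleolar helicase, fell by 2.23 ± 0.39 (adjusted p = 0.00291), and was -1.46 (adjusted p = 0.0185) without the natural-cycle blastocyst array. These are bright rows, with a median signal over the list of 12.71 and 13.05 at morula, a range in which the natural-cycle pair fell in general, as given above. Among 23 ribosomal protein genes limma called 0, with a median of -0.21 (-0.01 superovulated, -0.33 natural cycle), and 3 had an unadjusted p under 0.05. The one farthest from 0 was Rps9, at -0.96 ± 0.33 (adjusted p = 0.0839). Of 24 cyclins and their inhibitors 4 rose and 1 fell, with a median of 0.26 (0.01 superovulated, 0.12 natural cycle), with counts of 0 and 0 without the superovulated morula array, 0 and 0 without the natural-cycle blastocyst array, 0 and 2 with housekeeping centring and 3 and 0 with cyclic loess. Replication and mitosis genes had 2 of 29 higher and 4 lower, a median of -0.25 (-0.03 superovulated, -0.41 natural cycle), with counts of 0 and 3 without the superovulated morula array, 1 and 4 without the superovulated blastocyst array, 1 and 3 without the natural-cycle morula array and 0 and 1 without the natural-cycle blastocyst array. All 29 genes of the replication and mitosis list were detected on all 4 arrays. Their shares were 6.9% higher and 13.8% lower, beside 11.2% and 9.81% of detected autosomal genes. The kinetochore motor Cenpe had the largest change of this list, a fall of 2.21 ± 0.38 (adjusted p = 0.00277). Beside the same reference, the shares were 16.7% higher and 4.17% lower for the cyclin list. For the p53 and apoptosis list they were 12.5% and 0%. Of 24 p53 targets and apoptosis genes 3 rose and 0 fell, with a median of 0.18 (0.46 superovulated, -0.06 natural cycle), with counts of 1 and 1 without the superovulated morula array, 5 and 0 without the natural-cycle morula array, 0 and 0 without the natural-cycle blastocyst array and 1 and 0 with housekeeping centring.

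Stress genes included 7 of 23 higher and 1 lower, with a median of 0.77 (0.94 superovulated, 0.56 natural cycle), with counts of 3 and 1 without the superovulated morula array and 3 and 1 without the natural-cycle blastocyst array. The endoplasmic reticulum chaperone Hspa5 (BiP) read 8.50 and 8.99 at morula and 11.32 and 10.85 at blastocyst and rose by 2.34 ± 0.29 (adjusted p = 0.000395). Xbp1, a factor of the unfolded protein response, rose by 3.62 ± 0.31 (adjusted p = 6.21e-05), and catalase (Cat), which breaks down hydrogen peroxide, by 3.09 ± 0.39 (adjusted p = 0.000401). Metallothionein 1 (Mt1) fell by 2.00 ± 0.36 (adjusted p = 0.00348). Ddit3 (CHOP), also of the unfolded protein response, rose by 2.42 ± 0.64 (adjusted p = 0.0291), and its change was 1.71 (adjusted p = 0.264) without the superovulated morula array and 1.99 (adjusted p = 0.234) without the natural-cycle blastocyst array.

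The DNA methylation and X inactivation list had 5 of 18 higher and 1 lower, a median of 0.28 (0.29 superovulated, 0.14 natural cycle), with counts of 2 and 0 without the superovulated morula array, 6 and 0 without the natural-cycle morula array, 2 and 0 without the natural-cycle blastocyst array, 4 and 2 with housekeeping centring and 7 and 0 with cyclic loess. Dnmt3b, a methyltransferase that sets new methylation, read 8.41 and 9.10 at morula and 10.03 and 11.54 at blastocyst and rose by 2.03 ± 0.33 (adjusted p = 0.00197). Uhrf1, which guides maintenance methylation, rose by 2.81 ± 0.48 (adjusted p = 0.00278). Of 785 X-linked genes detected on all 4 arrays 52 rose (6.62%) and 68 fell (8.66%), beside 1416 (11.2%) and 1237 (9.81%) of 12604 on the autosomes, a difference that was not tested. In the imprinted list 5 of 28 rose and 2 fell, with a median of 0.03 (-0.06 superovulated, -0.02 natural cycle), with counts of 2 and 2 without the superovulated morula array, 6 and 1 without the superovulated blastocyst array and 2 and 1 without the natural-cycle blastocyst array. The shares of the imprinted list were 17.9% higher and 7.14% lower, beside the 11.2% and 9.81% on the autosomes. Igf2r, which clears insulin-like growth factor 2, fell by 2.24 ± 0.27 (adjusted p = 0.000293), and Smoc1, a matrix protein, rose by 2.02 ± 0.25 (adjusted p = 0.000343). Sfmbt2, a Polycomb-group gene expressed from the paternal copy in trophoblast, read 5.34 and 7.10 at morula and 8.59 and 9.78 at blastocyst and rose by 2.96 ± 0.44 (adjusted p = 0.00109).

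A large miRNA cluster lies inside an intron of Sfmbt2 on mouse chromosome 2, and most of its rows rose, as their host gene did. The cluster was looked at by itself after the miRNA rows that had changed most were seen to lie there. Of 67 miRNA rows inside the gene 51 rose and 1 fell, with a median change of 2.65 (2.30 superovulated, 2.80 natural cycle), and of 530 miRNA rows elsewhere 8 rose and 11 fell, with a median of -0.06. Many cluster rows hold identical values on all 4 arrays and cannot be told apart. With such rows counted once there were 46, of which 30 rose and 1 fell, with a median of 1.46. Mir669g read 6.86 and 7.53 at morula and 11.54 and 12.26 at blastocyst and rose by 4.71 ± 0.40 (adjusted p = 6.21e-05). Mir669k read 7.84 and 9.92 at morula and 13.06 and 13.60 at blastocyst and rose by 4.45 ± 0.64 (adjusted p = 0.000933), and the identical Mir466b-1, Mir466b-6 and Mir466b-7 rows rose by 4.08 ± 0.36 (adjusted p = 6.21e-05). The row that fell was Mir466d, by 1.24 ± 0.33 (adjusted p = 0.0273), and its change was -0.87 (adjusted p = 0.237) without the superovulated morula array and -0.98 (adjusted p = 0.237) without the natural-cycle blastocyst array. Whether this signal came from mature miRNAs or from the Sfmbt2 transcript that carries them was not tested.

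**Figure D4:**
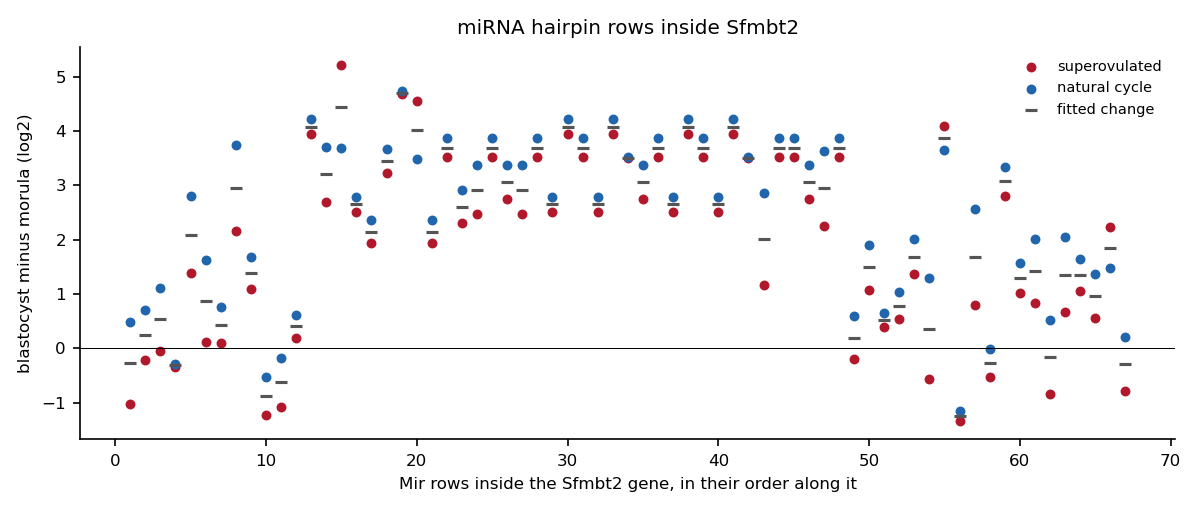
Change from morula to blastocyst (log2) of the 67 miRNA rows inside Sfmbt2, in their order along the gene, on the superovulated and the natural-cycle background, with the fitted change as a short bar. The fitted changes reach 4.71 at Mir669g, and 51 of the 67 were called higher.

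Outside the cluster, the 3 miRNAs with the largest falls are shown with their mature sequences, 5′ to 3′, from RefSeq (GRCm38.p6), with the seed (bases 2 to 8) in capitals.
mmu-miR-3471: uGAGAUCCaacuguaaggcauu
mmu-miR-1956: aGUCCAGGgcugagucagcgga
mmu-miR-763: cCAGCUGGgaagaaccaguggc
They lie at chr4:10845585-10845606, minus strand (the Mir3471-1 copy), chr3:138526425-138526446, plus strand, and chr10:120448052-120448073, minus strand. No 2 of these seeds are alike, and among the 27 mature sequences that the table gave for 17 of the 71 miRNA rows called, 0 seeds were shared. The Mir3471-1 row read 16.91 and 16.28 at morula and 14.16 and 14.44 at blastocyst and fell by 2.29 ± 0.23 (adjusted p = 0.000106), and its second copy, Mir3471-2, fell by 2.32 ± 0.27 (adjusted p = 0.000257). Mir1956 fell by 1.95 ± 0.39 (adjusted p = 0.0065), and its change was -1.85 (adjusted p = 0.0614) without the superovulated morula array and -1.64 (adjusted p = 0.0501) without the superovulated blastocyst array. Mir763 fell by 1.84 ± 0.43 (adjusted p = 0.0147), and its change was -1.80 (adjusted p = 0.0625) without the superovulated blastocyst array, -1.54 (adjusted p = 0.1) without the natural-cycle morula array and -1.88 (adjusted p = 0.0899) without the natural-cycle blastocyst array.

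Of 37 genes known as oocyte transcripts 2 rose and 19 fell, with a median of -1.15 (-1.27 superovulated, -1.14 natural cycle), and the counts were 1 and 15 without the superovulated morula array and 1 and 16 without the natural-cycle blastocyst array. Btg4, an adaptor of the deadenylase that clears maternal mRNA, read 9.35 and 9.70 at morula and 5.84 and 5.32 at blastocyst and fell by 3.95 ± 0.29 (adjusted p = 3.25e-05). The zona pellucida genes Zp3, Zp2 and Zp1, which build the egg coat, fell by 3.94 ± 0.33 (adjusted p = 5.32e-05), 3.76 ± 0.27 (adjusted p = 3.07e-05) and 3.29 ± 0.27 (adjusted p = 4.97e-05). The oocyte growth factor gene Bmp15 fell by 3.85 ± 0.34 (adjusted p = 6.21e-05) and the histone chaperone Npm2 by 3.11 ± 0.36 (adjusted p = 0.000245). Zp3 read 10.45 and 10.35 at morula and 6.91 and 6.003 at blastocyst, and stayed above the silent level on all 4 arrays. Nlrp14, Nlrp5 and Padi6, known from the oocyte's cytoplasmic lattices and the maternal complex below the cortex, fell by 3.67 ± 0.45 (adjusted p = 0.000332), 3.00 ± 0.28 (adjusted p = 8.24e-05) and 2.69 ± 0.32 (adjusted p = 0.000313). Khdc3, a partner in that complex, read 12.21 and 12.60 at morula and 14.73 and 14.82 at blastocyst and rose instead, by 2.37 ± 0.41 (adjusted p = 0.00278). The other gene of the list that rose was Ooep, by 1.78, with a range of 1.29 to 2.27 over the alternatives run. Its call was lost under 2 of 17 alternatives, those without the superovulated morula or the natural-cycle blastocyst array.

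Of 21 genes known to open at the 2-cell stage 0 rose and 16 fell, with a median of -2.07 (-2.73 superovulated, -1.61 natural cycle), and 12 fell without the superovulated morula array and 13 without the natural-cycle blastocyst array. The nuclear body protein Sp110 was among the 2 brightest, at 14.98 and 15.03 at morula and 10.85 and 9.00 at blastocyst, a fall of 5.08 ± 0.45 (adjusted p = 6.41e-05), and Csprs, a related gene, fell by 4.79 ± 0.36 (adjusted p = 3.25e-05). The Tdpoz genes, which encode TRAF and BTB domain proteins, fell by 4.35 ± 0.34 (adjusted p = 3.75e-05) for Tdpoz4, 3.82 ± 0.33 (adjusted p = 6.21e-05) for Tdpoz3 and 3.79 ± 0.40 (adjusted p = 0.000151) for Tdpoz2. For Zscan4e and Zscan4b of the telomere-linked Zscan4 family the falls were 2.93 ± 0.28 (adjusted p = 7.55e-05) and 2.20 ± 0.32 (adjusted p = 0.00108), and for Tcstv3 3.06 ± 0.36 (adjusted p = 0.000275). Rows of the Tdpoz and Zscan4 families are near-identical in sequence, so that 1 transcript may feed several of them.

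Some genes crossed the silent level altogether. By this measure 130 called genes, of 30176 tested, were silent on both morula arrays and above the level on both blastocyst arrays, and 87 went the other way. The level differs by array, at 5.20 and 4.80 at morula and 4.89 and 4.75 at blastocyst. A signal between 4.89 and 5.20 thus counts as silent on the superovulated morula array and as detected on either blastocyst array. This favours genes that came on, and how much of the 130 it accounts for was not tested. Adh1, a class I alcohol dehydrogenase that also oxidises retinol, was the brightest named gene of those that came on, at 4.60 and 4.59 at morula and 10.57 and 14.59 at blastocyst, and rose by 7.98 ± 0.81 (adjusted p = 0.000123). It was at or under the silent level on all 14 earlier arrays of the series, as were Tmprss2, the LIM domain gene Zfp185 at 2.32 ± 0.23 (adjusted p = 0.000102) and the phospholipid transfer protein Pltp at 1.91 ± 0.28 (adjusted p = 0.00101). In all, 166 genes were above the level on both blastocyst arrays and on none of the 14 before, of which 82 were called. Pltp was 1.27 (adjusted p = 0.00163) without the natural-cycle blastocyst array. The calpain subunit Capn2 and the RNA-binding protein Pcbp4 came on too. Capn2 read 4.36 and 4.54 at morula and 6.66 and 8.79 at blastocyst and rose by 3.27 ± 0.47 (adjusted p = 0.000917), and Pcbp4 read 4.66 and 4.50 at morula and 6.90 and 8.45 at blastocyst and rose by 3.10 ± 0.42 (adjusted p = 0.000603). Of the genes that went silent, Foxa1, a pioneer factor of endoderm and other epithelia, was the brightest named gene at morula, at 10.36 and 8.13 at morula and 4.68 and 4.47 at blastocyst, a fall of 4.67 ± 0.60 (adjusted p = 0.000462). Dynap, a membrane protein gene, read 8.93 and 7.08 at morula and 3.39 and 3.28 at blastocyst and fell by 4.67 ± 0.52 (adjusted p = 0.000204). Omt2a, the neighbour in kind of Omt2b, fell by 4.14 ± 0.39 (adjusted p = 7.54e-05), the chemokine receptor Ccr4 by 3.41 ± 0.40 (adjusted p = 0.000259), and the genes Bex6 and Tex13b by 3.52 ± 0.39 (adjusted p = 0.000194) and 2.75 ± 0.35 (adjusted p = 0.000438).

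**Figure D5:**
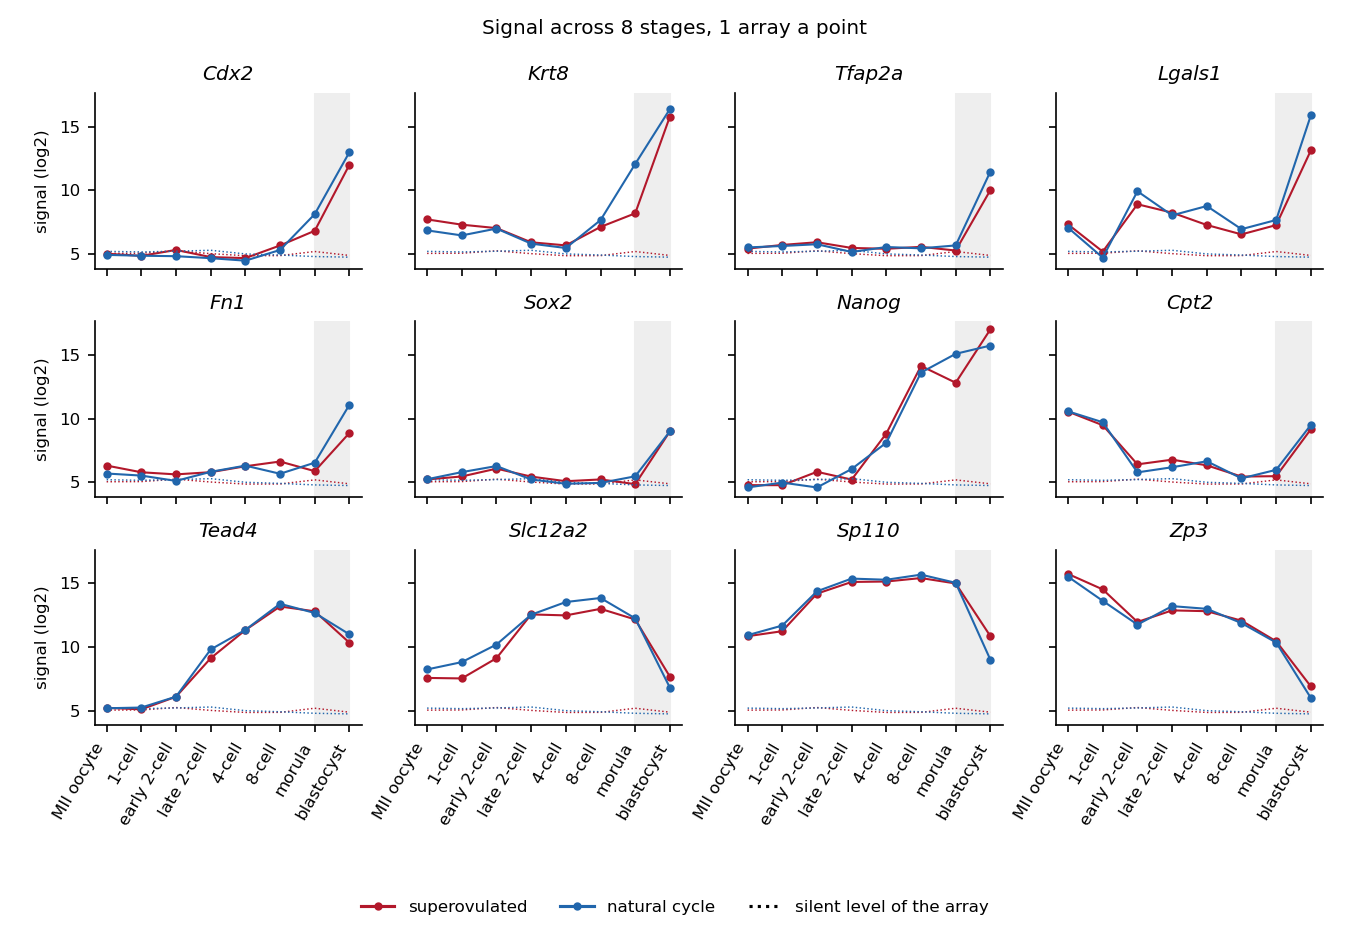
Log2 signal of selected genes over the 8 stages on the superovulated and the natural-cycle background, with each array's silent level. The grey band marks morula to blastocyst. Cdx2 reads 5.67 and 5.32 at 8-cell and 12.003 and 12.99 at blastocyst, while Cpt2 starts at 10.55 and 10.57 in the oocyte, lies at 5.49 and 5.98 at morula and returns to 9.17 and 9.51.

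To see where this step differs from the one before, the change from morula to blastocyst was set against that from 8-cell to morula in the same fit. The 2 steps share the morula arrays, so a low or high morula array moves both. The difference passed the test for 159 rows (0.519%), 63 of them more positive at the later step and 96 more negative, and 155 of the 159 were also called for the change itself. With array weights, which give the morula arrays the lowest weight, 6 rows passed. The gain of Adh1 was larger at the later step by 7.64 (adjusted p = 0.0442), that of Lgals1 by 6.31 (adjusted p = 0.0324), that of Tfap2a by 5.30 (adjusted p = 0.00574) and that of Sox2 by 3.76 (adjusted p = 0.00484). Genes with a more negative change at this step had differences of -5.48 (adjusted p = 0.0215) for Obox6, -4.98 (adjusted p = 0.0215) for Sox15 and -5.03 (adjusted p = 0.0131) for Omt2b. For Cdx2, which was already higher at morula than at 8-cell, the difference was 3.04 (adjusted p = 0.0768), and the 8-cell values were 5.67 and 5.32.

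The change itself differed between the hormone backgrounds for 47 rows (0.153%), 14 with the more positive change in superovulated embryos and 33 in natural-cycle embryos. With 1 array per stage and background, this test takes its error from the other stages, and the hormone background and the pool of embryos cannot be told apart. Ndrg1 differed by -5.21 (adjusted p = 0.0035), superovulated minus natural cycle, and the nuclear export gene Nxf7 by -5.07 (adjusted p = 0.0035), with signals of 4.99 and 4.62 at morula and 5.98 and 10.68 at blastocyst. The peptide transporter Slc15a2 read 4.35 and 4.30 at morula and 6.60 and 10.87 at blastocyst and differed by -4.32 (adjusted p = 0.00646). In each of these the natural-cycle blastocyst was the high array. Nxf7 rose by 3.52 ± 0.93 (adjusted p = 0.0288) over both backgrounds and Slc15a2 by 4.41 ± 0.86 (adjusted p = 0.00583), and the changes were 4.08 (adjusted p = 0.0839) without the superovulated morula array, 5.86 (adjusted p = 4.41e-07) without the superovulated blastocyst array, 2.96 (adjusted p = 0.15) without the natural-cycle morula array and 1.18 (adjusted p = 0.0163) without the natural-cycle blastocyst array for Nxf7 and 2.26 (adjusted p = 0.000845) without the natural-cycle blastocyst array for Slc15a2. Txnip, an inhibitor of thioredoxin, was not called over both backgrounds at 0.30 ± 0.94 (adjusted p = 0.902), nor was its difference between backgrounds, at -4.62 (adjusted p = 0.0558), and it read 8.41 and 8.12 at morula and 6.41 and 10.74 at blastocyst. Lrp2 differed the other way by 4.93 (adjusted p = 0.0035). The melanoma antigen gene Magea1 read 6.23 and 9.59 at morula and 8.81 and 7.39 at blastocyst, and its neighbour in kind Magea3 5.58 and 9.27 at morula and 8.38 and 7.76 at blastocyst, and neither was called for the change, at 0.19 ± 0.83 (adjusted p = 0.931) and 0.65 ± 0.84 (adjusted p = 0.727). Their differences between backgrounds, 4.78 (adjusted p = 0.0998) and 4.30 (adjusted p = 0.0553), did not pass the test either. Eda2r, a receptor of the TNF family, read 5.82 and 10.08 at morula and 7.55 and 7.62 at blastocyst and had a change of -0.37 ± 0.85 (adjusted p = 0.858) and a difference of 4.19 (adjusted p = 0.053). For these 3 genes the low array among the morulae was the superovulated one. Trim38, a tripartite motif ubiquitin ligase, read 5.20 and 8.28 at morula and 10.82 and 9.65 at blastocyst, with a difference of 4.25 (adjusted p = 0.0852), which did not pass, and a change of 3.50 ± 0.82 (adjusted p = 0.0151), which was 1.59 (adjusted p = 0.0661) without the superovulated morula array, 2.97 (adjusted p = 0.0961) without the superovulated blastocyst array, 5.40 (adjusted p = 0.000154) without the natural-cycle morula array and 4.02 (adjusted p = 0.0505) without the natural-cycle blastocyst array.

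Other cells that could travel with an embryo were looked for by their markers. Of 20 cumulus and granulosa genes 0 rose and 1, the receptor Amhr2, fell, by 3.60 ± 0.34 (adjusted p = 7.55e-05). The steroid enzymes Cyp11a1 and Hsd3b1 and the inhibin subunit Inha were not called. Cyp11a1 read 7.29 and 3.92 at morula and 4.20 and 4.63 at blastocyst. Hsd3b1 read 7.98 and 4.71 at morula and 5.01 and 4.60 at blastocyst, and Inha 6.47 and 4.31 at morula and 4.41 and 3.97 at blastocyst. Each of the 3 read highest on the superovulated morula array, by more than 2 units, and the median signal over the list was 4.77 there, against 4.19 on the natural-cycle morula array and 4.30 and 4.19 on the blastocyst arrays. Of the 20 genes 14 were silent on all 4 arrays, among them the gonadotropin receptor Fshr, Star, Foxl2 and Amh. The list's median is thus a value near the floor, which was raised on the superovulated morula array. Rows with a mean signal under 5 had a median 0.22 higher there than on the natural-cycle morula array. The medians of the oviduct and the sperm and testis lists given below were 4.44 and 4.38 there, against 4.20 and 4.19. The part of the cumulus and granulosa genes in the results that rest on the superovulated morula array was not tested. Of 10 oviduct genes 1 rose and 0 fell, of 8 blood and immune genes 1 and 0, and of 11 sperm and testis genes 0 and 1. The called genes were Muc1 at 0.53, Cd68 at 1.32 and Ldhc at -0.83, and each of these 3 calls was lost without the superovulated morula array, the superovulated blastocyst array or the natural-cycle blastocyst array. Muc1 lost it without the natural-cycle morula array too. The median changes of these 3 lists were -0.05 (-0.17 superovulated, 0.04 natural cycle), -0.05 (-0.09 superovulated, -0.04 natural cycle) and -0.09 (-0.15 superovulated, -0.01 natural cycle).

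The same promoter windows were searched for 11 short motifs in the genes that rose, those that fell and the expressed genes not called, as a description with no test. The TEAD core (GGAATG) was in 13.1% of windows of genes that rose, 12.4% of those that fell and 11.2% of expressed genes not called. The ETS core (CCGGAAG) was in 16.2%, 15.5% and 20.2%, the TATA box (TATAAA) in 6.1%, 9.0% and 7.5%, and the E-box (CACGTG) in 8.8%, 11.7% and 10.4%. The shares over all 17972 windows were 13.7%, 11.4%, 12.9% and 8.0% in that order. The CCAAT box was in 41.8% of windows of genes that rose, with a 95% interval (Wilson) of 39.2 to 44.5, and in 36.5% of those that fell, 33.7 to 39.3, beside 39.4% of expressed genes not called and 38.4% of all. The median GC share was 61.0% for genes that rose, 58.0% for those that fell and 60.7% for expressed genes not called. The remaining motifs were the GATA site (spelled AGATAA), with 6.5%, 7.5% and 6.4%, the KLF CACCC box (GGGTGTGG), with 3.2%, 4.5% and 3.8%, SOX (CATTGT), with 7.5%, 8.8% and 7.3%, the octamer, with 1.6%, 1.3% and 1.6%, and GRHL (AACCGGTT), with 0 and 0 windows and 0.3%. Their shares over all windows were 10.1%, 3.7%, 11.4%, 1.8% and 0.2%. Both strands were searched. A SOX match on the reverse strand or a CCAAT box (ATTGG in reverse) may overlap another motif.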

How the data were processed

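RNA of pooled oocytes and embryos of 8 stages was measured on 16 Affymetrix mouse transcriptome arrays, 1 per stage and hormone background. The deposited values are log2 signals per array row, made by the authors with Affymetrix Expression Console per the labels. For its arrays of single blastomeres and blastocysts, on the same array type, the study's methods name signal space transformation with robust multiarray averaging (background, normalization and summarisation). For these pooled arrays that step, the program's version and the genome build are not given in the sources used here. Of 72688 rows, 30638 with exactly 1 symbol were analysed, and 2176 with several symbols, 33142 with none and 6732 control rows were left out of the main comparison. Columns of other samples numbered 0.

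Stage and hormone background were fitted over all 16 arrays with limma 3.58.1 in R 4.3.3 (moderated variance with a trend, blastocyst minus morula, Benjamini-Hochberg over the 30638 rows, threshold 0.05). With 1 array per stage and background, the spread comes from all stages, and the number of arrays limits the precision. Array weights were 0.526 for the morula and 0.757 for the blastocyst arrays, against 0.861 to 1.47 at the other stages. The shared spread may thus be too small for this step. The difference between backgrounds and that from the step before were contrasts of such fits. The background term pairs the arrays, since the labels give the hormone background of each. The script was tested on simulated data with known changes. Genes were named by rule: the 15 largest rises and falls among called genes above the silent level on all 4 arrays, the 8 highest genes crossing that level each way, the 5 largest differences between backgrounds each way, up to 5 miRNA rows each way, and list members. Of several rows of a gene, the brightest stood for it. The members, lists and rule were chosen with earlier results of these data known. Promoters and miRNAs came from RefSeq (17972 tested genes had a window). Alternatives covered the moderation, the block, the arrays fitted, array weights, scaling, row filters and leaving out each of the 4 arrays. The counts without the superovulated morula or natural-cycle blastocyst array, and of distinct miRNA rows, were added after the data were seen.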

Additional observations from a re-analysis of the deposited data

Results flagged for a closer look

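The change from morula to blastocyst differed between the hormone backgrounds for 15 of the genes named or listed, by limma's test of the difference itself. Over all 30638 rows 47 passed this test (0.153%). Ndrg1, Nxf7, Slc15a2 and Lrp2 were among the genes named for the size of this difference, so their passing is no separate support. The difference is given here as the superovulated change minus the natural-cycle change. Genes with the more positive change in natural-cycle embryos were Ndrg1 at -5.21 (adjusted p = 0.0035), Nxf7 at -5.07 (adjusted p = 0.0035), Slc15a2 at -4.32 (adjusted p = 0.00646), Adh1 at -4.03 (adjusted p = 0.0035) and Tmprss2 at -2.73 (adjusted p = 0.015). In the same direction, the amino acid transporter Slc7a8 differed by -4.30 (adjusted p = 0.0397), the imprinted gene Peg10 by -3.82 (adjusted p = 0.0224) and the asparagine synthetase gene Asns by -2.25 (adjusted p = 0.0397). The epithelial secreted protein gene Dmkn differed by -2.86 (adjusted p = 0.0035), the ATP-gated channel P2rx3 by -2.72 (adjusted p = 0.0035), the collagen chaperone Serpinh1 by -2.42 (adjusted p = 0.0224) and the serine protease Prss32 by -2.28 (adjusted p = 0.00672). The trophoblast factor Elf5 differed by -1.94 (adjusted p = 0.0224) and the semaphorin Sema3b by -1.84 (adjusted p = 0.0193). The more positive change in superovulated embryos belonged to Lrp2, at 4.93 (adjusted p = 0.0035), whose low array was the superovulated morula. Each of these tests rests on 1 array per stage and background, and the pool cannot be told apart from the hormone background.

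Array rows outside the comparison also changed, but a smaller share of them than of the tested rows. When all rows other than control rows were fitted together, 547 of the 35318 rows without exactly 1 symbol were called higher at blastocyst and 1104 lower. In the main fit 2003 of the 30638 tested rows were called higher and 1694 lower.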

How the results depend on the processing

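Of the 287 called genes named or on the lists, 133 stayed past the threshold under every alternative run and 0 reversed. Without any 1 of the 4 arrays 140 held; 127 lost the call without the superovulated morula array, 46 without the superovulated blastocyst, 54 without the natural-cycle morula and 133 without the natural-cycle blastocyst. In these fits the lone array of a stage is assumed to vary like the others. The total of 3697 rows ranged from 1632 to 3788 over them, with 878 to 2062 higher and 685 to 1759 lower. It was 2269 on the 4 arrays alone with the background as the replicate block (1276 higher, 993 lower), 2146 on the 8-cell, morula and blastocyst arrays (1216 and 930) and 2095 with array weights (1209 and 886). With no replicate block it was 3086, and the block in the main model is the hormone background. Centring on housekeeping genes gave 1310 higher and 2552 lower, so that 33.92% of calls were higher instead of 54.18%; of the 10 genes it rests on, 3 rose and 1 fell. Rows whose change differed between backgrounds numbered 47, and 21 by plain analysis of variance. Those that differed from the step before numbered 159, but 6 with array weights and 21 by plain analysis of variance. Genes that were not called changed sign with arrays left out, with ranges of -0.82 to 0.16 for Pou5f1, -0.023 to 0.34 for Sox17, -0.035 to 1.70 for Elf5, -1.96 to 2.57 for Txnip, -1.59 to 1.98 for Magea1, -1.37 to 2.67 for Magea3, -2.43 to 1.68 for Eda2r and -2.58 to 0.21 for Cyp11a1. Centring on housekeeping genes turned Sox17 to -0.10 and Magea1 to -0.062. The cause of these shifts was not tested. Dim rows near the silent level limit what can be called.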
